A study of Mus musculus with 40 samples.

Results

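The RNA of the synaptoneurosome fraction (SNF) was compared with that of the whole-cell homogenate (WCH) in VGAT-TRAP mice at 21 d. The comparison holds 10 of the 40 libraries of the study, 5 of SNF and 5 of WCH, taken by the strain, the fraction and the replicate number that their labels give, and each SNF library was paired with the WCH library of its own number. The mice carried a Cre-dependent TRAP reporter, which tags the large ribosomal subunit with GFP through Rpl10a, and a Cre driven by Slc32a1, the gene of the vesicular GABA transporter VGAT. Both groups shared this genotype and received no treatment. Neither fraction was purified by the tag, so that both hold RNA of every cell type in the tissue and not only of GABAergic neurons. Each replicate was a pool of forebrains, of both sexes as available. The tissue is labelled cortex, but by the methods it was dissected forebrain, which likely took in some striatum. In such bulk libraries, fewer cells of a type and less RNA per cell cannot be told apart.

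Synaptoneurosomes are pinched-off, resealed pieces of neurites, often a presynaptic bouton still joined to a postsynaptic spine, which are collected as a band from a density gradient. They hold mRNAs and ribosomes that were in the neurite, and pieces of glial processes, vessels and membranes of similar density can travel in the same band. In neurons, mRNAs of secreted and membrane proteins are translated on the endoplasmic reticulum, which runs from the cell body into dendrites and axons, while mRNAs of cytosolic and nuclear proteins are translated on free ribosomes.

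The 10 libraries held between 15396463 and 19318275 counts, of which between 8951206 and 18392574 were off the mitochondrial chromosome (MT) and were used. Levels are given in cpm, the counts of a gene scaled to a common total off MT, and 1 count was worth between 0.0544 and 0.112 cpm. Genes on MT took 13.3% to 19.4% of the counts in 4 SNF libraries and 41.9% in SNF 3, against 2.63% to 6.67% in WCH. SNF 3 also stood apart from the other SNF libraries on the second principal component, which held 10.6% of the variance, while the first, with 69.7%, separated SNF from WCH. Where this library moved the value of a gene or list most, the value without it is given as well. Of 41351 genes off MT, 16178 reached 0.5 cpm in at least 3 libraries and were tested with edgeR's quasi-likelihood test, with the replicate as a block and Benjamini-Hochberg adjustment.

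SNF and WCH differed in most of the genes tested. At an adjusted p of at most 0.05, 3595 genes (22.2%) were higher in SNF and 8308 genes (51.4%) were lower, and 1825 of the former and 3090 of the latter changed at least 2-fold. A threshold of 1.5-fold beside the p left 3180 higher (19.7%) and 7066 lower (43.7%). All 5 SNF libraries lay above all 5 WCH libraries in 2563 genes (15.8%), and the reverse held in 6230 genes (38.5%). These counts depend on the scaling. With library sizes alone, the median log2 change over all genes, SNF minus WCH, was -0.54, so that a gene at 0 stands above most others. TMM factors, which centre the bulk of the genes, moved this median to -0.02 and gave 5082 genes higher (31.4%) and 3924 lower (24.3%). All 3595 genes higher with library sizes were also higher with TMM, while of the 8308 lower genes 3924 remained lower. Changes below are on the library-size scale, as log2 change ± SE, and counts with TMM stand beside those of the gene lists.

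Of the genes named by the rule, those with the largest change in each direction were of different kinds. Vgf, a neuronal peptide precursor of dense-core granules, had the smallest p and the largest change of the higher genes named by the rule. It measured 85.2, 89.8, 73.3, 68.5 and 74.7 cpm in SNF 1 to 5 and 18.7, 14.8, 15.1, 14.4 and 16.4 cpm in the WCH of the same pools. Every SNF library lay above every WCH library, and the means of 78.3 ± 8.85 and 15.9 ± 1.76 cpm (SD, n = 5 each) correspond to a log2 change of 2.30 ± 0.11, or 4.92-fold (edgeR quasi-likelihood test, adjusted p = 3.95e-06). At the other end, Mir124a-1hg, a long noncoding transcript that hosts a microRNA, measured 22.3, 15.6, 6.70, 33.1 and 49.6 cpm in SNF and 143, 99.4, 122, 142 and 144 cpm in WCH. The groups did not overlap, and it fell by 2.56 ± 0.28 on the log2 scale, the lowest change that the rule for named genes returned. The microRNA itself was not measured here.

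**Figure D1:**
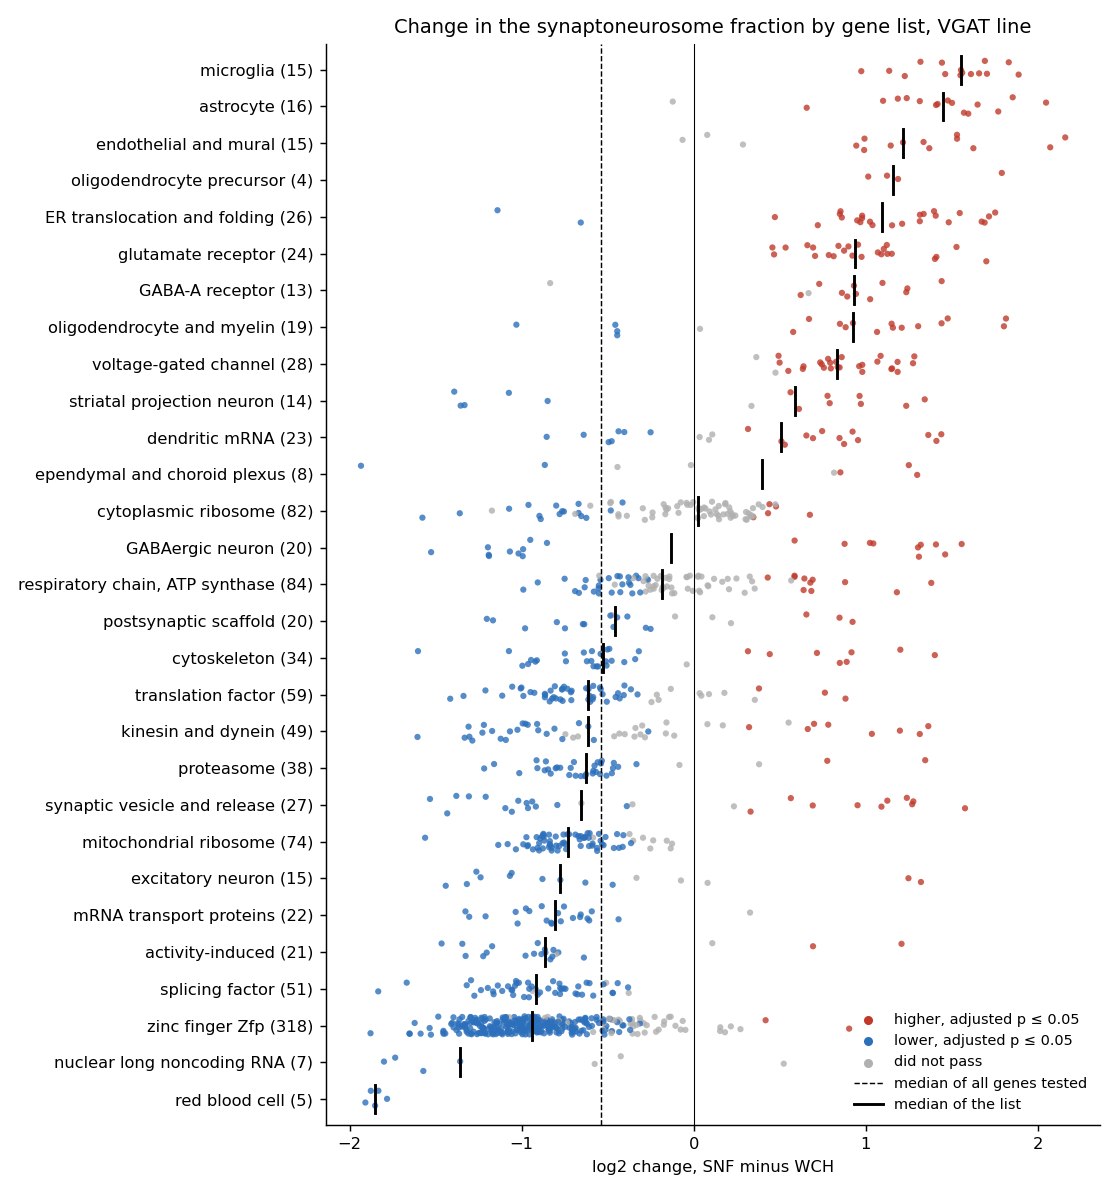
Each point is a gene, placed by its log2 change from WCH to SNF in the VGAT line (library-size scale), in rows for the 29 gene lists with the number of genes tested in brackets. Red and blue points passed an adjusted p of at most 0.05 in either direction and grey points did not, black bars are list medians and the dashed line is the median of all 16178 genes (-0.54). Lists of receptors, channels, glia and the endoplasmic reticulum lie to the right of 0, and zinc finger, splicing and nuclear RNA lists lie to the left.

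Because receptors and secreted proteins recurred among the higher genes, all genes were sorted by a property of the encoded protein that was read from the sequence. For 14207 of the 14281 protein-coding genes tested, the coding sequence of GENCODE M21 (GRCm38) was translated and searched for hydrophobic segments, windows of 19 residues with a mean Kyte-Doolittle hydropathy of at least 1.6. Such a segment can span a membrane or, at the N terminus, act as a signal sequence. The coding sequences of 4 segments are given here because they mark the classes that are compared. They come from the secreted Vgf, from Atp6v0c, the multi-pass ring subunit of the vacuolar proton pump, and from Sec61b and Vamp2, which are held in the membrane by a single segment at their C terminus. Each is the first segment of its protein, 5′ to 3′ on the coding strand, with leucine codons in capitals.
Vgf: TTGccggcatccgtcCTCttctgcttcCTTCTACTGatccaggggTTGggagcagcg
Atp6v0c: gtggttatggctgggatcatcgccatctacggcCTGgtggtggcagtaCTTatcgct
Sec61b: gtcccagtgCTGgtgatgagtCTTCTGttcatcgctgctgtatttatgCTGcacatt
Vamp2: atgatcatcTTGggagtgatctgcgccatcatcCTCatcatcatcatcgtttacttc
The Vgf segment lies at chr5:137031001-137031057 on the plus strand and encodes residues 6 to 24 of 617. The Atp6v0c segment, at chr17:24164731-24164787 on the minus strand, encodes residues 59 to 77 of 155 and is the first of 3. The Sec61b segment lies at chr4:47482982-47483038 on the plus strand, at residues 71 to 89 of 96. The Vamp2 segment spans an intron, from chr11:69089979 to 69090657 on the plus strand, and encodes residues 96 to 114 of 116.

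The direction of change followed these classes closely. Of 702 genes whose protein had 6 or more segments, 77.6% were higher in SNF and 2.71% lower, with a median log2 change of 0.90. Among 1847 genes with 2 to 5 segments, 66.2% were higher and 11.7% lower, with a median of 0.79. A single segment that began within the first 30 residues gave nearly the same result, as 66.3% of 878 genes were higher and 10.1% lower. This class can hold signal sequences and segments that span a membrane. In contrast, of the 8458 genes whose protein had no segment, 4.89% were higher and 72.8% lower, with a median of -0.76. A protein without a segment by this threshold need not be cytosolic or nuclear. Scg5 and Ctsa, of the granule and lysosome lists below, had no segment and rose by 1.46 ± 0.15 and 1.42 ± 0.12. Over all 14207 genes, 24.7% were higher and 52.8% lower. The contrast kept its order with TMM, where 88.2% of the genes with 6 or more segments and 13.0% of those with none were higher, and without replicate 3, where these shares were 82.2% and 4.5%.

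Position within the protein went with the direction as well as the presence of a segment. A single segment that ended within 40 residues of the C terminus left 28.1% of 338 genes higher and 48.8% lower, and a single internal segment 30.0% of 1492 genes higher and 46.8% lower, both close to the shares over all genes. An intermediate class of 492 genes had no segment but a shorter hydrophobic stretch near the N terminus, at least 2.2 on average over 9 residues. Of these, 40.2% were higher and 31.5% lower. In the RBP4 line, with other mice, the median log2 change also ran from -0.72 with no segment to 0.74 with 6 or more, and 64.1% of the genes with 6 or more were higher there against 4.2% of those with none. These classes were set after values of the comparison had been seen, so that the shares are a description.

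**Figure D2:**
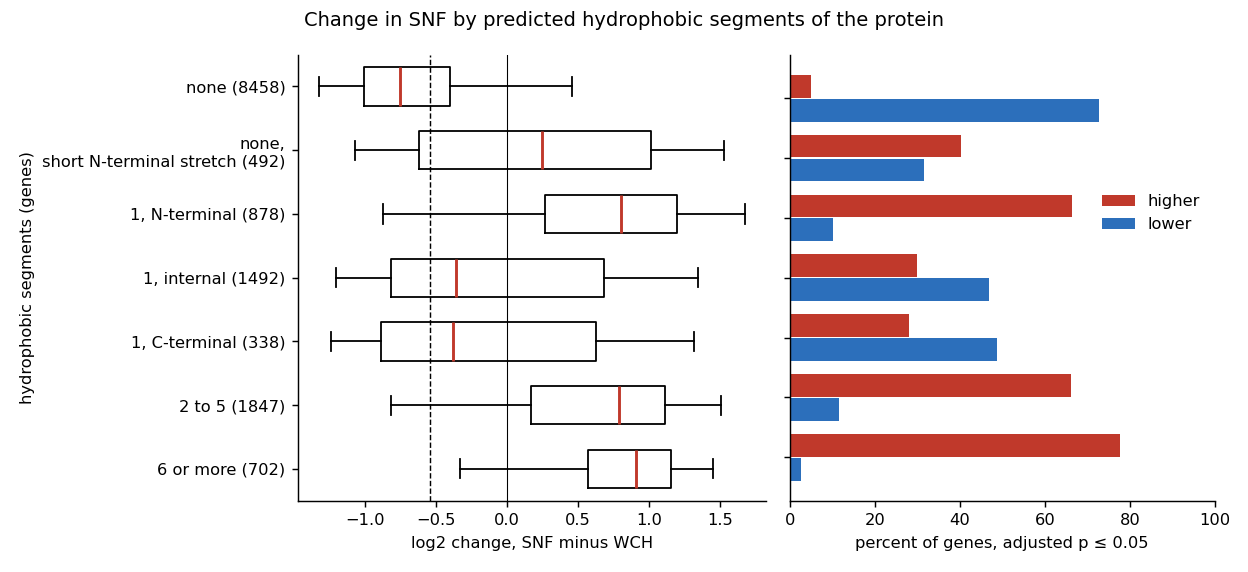
Left, log2 change from WCH to SNF for protein-coding genes in 7 classes of hydrophobic segments, with the number of genes in brackets; red lines are medians, boxes quartiles and whiskers the 5th and 95th percentiles, and the dashed line is the median of all genes tested. Right, percent of each class that was higher (red) or lower (blue) in SNF at an adjusted p of at most 0.05, from 4.89% higher with no segment to 77.6% with 6 or more.

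Some further lists were drawn up after values were seen, among them those of both sectors of the vacuolar proton pump, of tail-anchored SNAREs and of Rab GTPases, so that their counts describe the pattern and do not support it independently. The vacuolar proton pump, which acidifies synaptic vesicles and lysosomes, has a V0 sector in the membrane and a V1 sector in the cytosol. Of 7 V0 genes tested, 6 were higher in SNF, with log2 changes between 0.71 and 1.25, and of 10 V1 genes none was higher and 9 were lower, with a median of -0.91. Atp6v0c measured 369, 359, 220, 614 and 324 cpm in SNF and 166, 152, 200, 236 and 180 cpm in WCH, higher in SNF in all 5 pools although SNF 3 was within the range of WCH. Atp6v1a, a catalytic V1 subunit, measured 609, 551, 353, 577 and 454 cpm in SNF and 1256, 1240, 995, 1130 and 1043 cpm in WCH, with no overlap. Their log2 changes were 0.95 ± 0.17 (adjusted p = 0.000344) and -1.18 ± 0.12 (adjusted p = 1.02e-05). The single lower V0 gene was Atp6v0d1, at -0.88 ± 0.11, whose product is a peripheral subunit without a membrane span. With TMM the V0 counts were the same, and 7 V1 genes were lower and none higher.

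In the machinery of the endoplasmic reticulum, 24 of 26 genes were higher and 2 lower, with a median of 1.1, and with TMM 24 and 1. The chaperones led the list. Hspa5, or BiP, measured 1007, 950, 880, 1364 and 994 cpm in SNF and 290, 241, 337, 400 and 316 cpm in WCH. The groups were far apart, at a log2 change of 1.72 ± 0.12 (adjusted p = 4.91e-06), and Hsp90b1 rose by 1.75 ± 0.12 and Calr, or calreticulin, by 1.67 ± 0.12. Of the channel that passes proteins into the reticulum, the multi-pass subunit Sec61a1 rose by 1.15 ± 0.15. The small tail-anchored subunits were the 2 lower genes of the list, Sec61b at -0.66 ± 0.19 (adjusted p = 0.00754) and Sec61g at -1.14 ± 0.18 (adjusted p = 0.000128). With TMM, Sec61b was at -0.13 and did not pass.

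SNARE proteins, which fuse vesicles with their target membrane, are mostly tail-anchored. Of 26 such genes, 23 were lower in SNF and 1 was higher, with a median of -0.88, and with TMM 15 and 3. Vamp2, the main SNARE of synaptic vesicles, measured 540, 483, 589, 502 and 480 cpm in SNF and 1216, 1098, 913, 1004 and 878 cpm in WCH. All 5 WCH libraries lay above all SNF libraries, at -0.97 ± 0.12 (adjusted p = 3.54e-05). The higher one was Vamp8, at 0.62 ± 0.17, with 54.9 cpm in SNF 3 and at most 30.4 cpm in the other SNF libraries, and at 0.40 without replicate 3. Rab GTPases, which are attached to membranes by lipid anchors, were lower in 44 of 54 genes and higher in 1, Rab13, with a median of -0.81, and 24 and 4 with TMM. The shares lower over all genes tested were 51.4% with library sizes and 24.3% with TMM.

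Synaptic vesicle genes moved in both directions, which went in part with the segment classes. Whether the class sets the direction in this list was not tested. Of 27 genes tested, 10 were higher and 14 lower, and 11 and 13 with TMM. The shares over all genes tested were 22.2% higher and 51.4% lower, and 31.4% and 24.3% with TMM. Among the 12 with any segment or stretch, 8 were higher and 4 lower, and among the 15 with none, 2 were higher and 10 lower. Syp, or synaptophysin, a multi-pass protein of the vesicle, measured 1738, 1914, 1250, 1854 and 1529 cpm in SNF and 602, 523, 522, 597 and 510 cpm in WCH. It rose by 1.58 ± 0.13 (adjusted p = 5.36e-06), and Sv2a, a vesicle glycoprotein, rose by 1.28 ± 0.16 and Syt1, the calcium sensor of release, by 1.24 ± 0.16. Snap25, a SNARE held to the plasma membrane by lipids, measured 3740, 3887, 2218, 3178 and 3397 cpm in SNF and 7908, 10943, 10206, 9268 and 8672 cpm in WCH. It was thus lower in every SNF library than in any WCH library, and fell by 1.53 ± 0.17 (adjusted p = 1.56e-05). Nsf, which takes SNARE complexes apart, fell by 1.38 ± 0.14. The 2 exceptions with no segment were the giant active zone scaffolds Pclo, at 0.56 ± 0.11, and Bsn, at 0.33 ± 0.12.

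Genes of glutamate and GABA-A receptors and of voltage-gated channels were higher almost throughout. The cell types that these transcripts came from were not separated here. Of 24 glutamate receptor genes tested, 24 were higher and none lower, with log2 changes from 0.46 to 1.70 and a median of 0.94, and the same counts held with TMM. The largest change was that of Grin2c, which measured 34.0 cpm in SNF 3 and 12.2 to 15.4 cpm in the other SNF libraries. Of 13 GABA-A receptor genes, 11 were higher and none lower (12 and 0 with TMM). Of 28 voltage-gated channel genes, 26 were higher and none lower (28 and 0 with TMM). Grin1, the obligatory subunit of NMDA receptors, measured 88.9, 125, 73.0, 85.4 and 89.9 cpm in SNF and 24.9, 32.9, 36.9, 39.7 and 39.1 cpm in WCH. There was no overlap, and it rose by 1.41 ± 0.15 (adjusted p = 1.29e-05). Gria2, the AMPA receptor subunit that sets calcium permeability, showed how far SNF 3 could depart. It measured 2474, 2549, 2314 and 2270 cpm in SNF 1, 2, 4 and 5, but 1182 cpm in SNF 3, against 977 to 1309 cpm in WCH. Its log2 change of 0.87 ± 0.20 (adjusted p = 0.00185) became 1.1 without replicate 3. The GABA-A genes that did not pass were Gabrb2, at 0.67 ± 0.28, and Gabra6, at -0.83 ± 0.44.

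Markers of GABAergic neurons, the cells in which this line tags ribosomes, moved in both directions. Of 20 genes, 10 were higher and 10 lower, and 10 and 9 with TMM. Over all genes tested, 22.2% were higher and 51.4% lower, and 31.4% and 24.3% with TMM. All 9 genes whose protein had no segment were lower, as were 72.8% of that whole class. Of the 11 with a segment or stretch 10 were higher. Sst, or somatostatin, measured 701, 812, 532, 630 and 613 cpm in SNF and 221, 226, 211, 228 and 221 cpm in WCH. Its groups lay far apart, and it rose by 1.56 ± 0.12 (adjusted p = 5.02e-06). Slc32a1 itself measured 32.7, 35.7, 19.9, 26.8 and 23.9 cpm in SNF and 8.81, 10.6, 10.2, 10.3 and 11.6 cpm in WCH. It rose by 1.41 ± 0.15 (adjusted p = 1.34e-05), and Reln, a secreted matrix protein, rose by 1.46 ± 0.12 and the peptides Npy and Vip by 1.32 ± 0.14 and 1.3 ± 0.12.

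The enzymes that make GABA went the other way. Gad1 measured 388, 322, 129, 267 and 235 cpm in SNF and 723, 597, 480, 530 and 579 cpm in WCH. Gad2 measured 222, 182, 89.6, 138 and 138 cpm in SNF and 438, 406, 279, 284 and 313 cpm in WCH. Neither gene overlapped between the groups, and they fell by 1.19 ± 0.16 (adjusted p = 4.08e-05) and 1.20 ± 0.12 (adjusted p = 9.62e-06). Pvalb, a cytosolic calcium-binding protein, fell by 0.99 ± 0.12, and the transcription factors Lhx6 and Dlx6 by 1.07 ± 0.11 and 1.53 ± 0.25. The list's median was -0.13 with library sizes and 0.39 with TMM, so that its sign turned with the scaling, while Sst, Slc32a1, Gad1 and Gad2 kept their directions. The list's summed level was 2456 to 3643 cpm in SNF and 1981 to 2444 cpm in WCH.

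**Figure D3:**
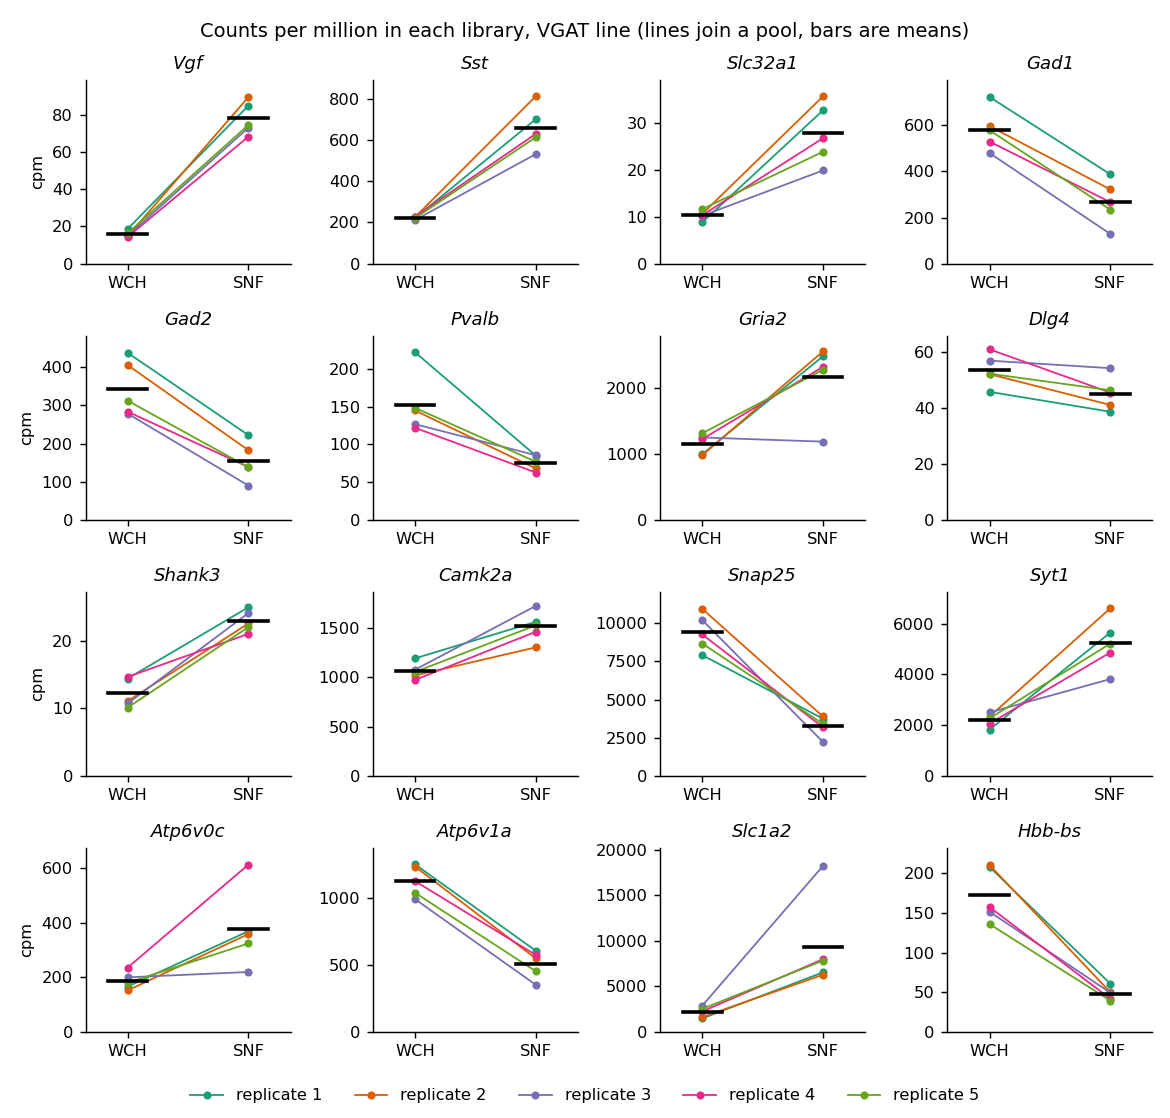
Levels in cpm in each of the 10 libraries for 16 genes described in the text, on linear axes from 0. Coloured lines join the WCH and SNF library of a pool and black bars are means of 5. Vgf, Sst, Slc32a1 and Syt1 are higher in SNF in all 5 pools, Gad1, Gad2, Snap25, Atp6v1a and Hbb-bs are lower in all 5, Dlg4 is slightly lower on this scale and higher with TMM, and SNF 3 departs in Slc1a2 and Gria2.

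Markers of other neurons also moved in both directions, beside 22.2% higher and 51.4% lower over all genes tested. Of 15 excitatory neuron genes, the 2 higher ones were the vesicular glutamate transporters Slc17a7, at 1.32 ± 0.12, and Slc17a6, at 1.25 ± 0.15, while 10 genes, among them the transcription factors Neurod6 (-1.44 ± 0.13) and Fezf2 (-1.06 ± 0.10), were lower. Of 14 genes of striatal projection neurons, 8 were higher, among them the peptide precursors Pdyn (1.34 ± 0.15) and Penk (1.23 ± 0.16) and the dopamine receptor Drd1 (0.56 ± 0.14), and 5 were lower, among them the cytosolic phosphatase inhibitor Ppp1r1b (-1.35 ± 0.11). With TMM the counts were 4 and 7 for the excitatory list and 9 and 5 for the striatal list. Neuropeptides and proteins of the secretory granule, a list drawn up after values were seen, were higher in 25 of 25 genes by both scalings, with log2 changes from 0.96 to 2.30. The lysosome, also a list drawn up afterwards, was higher in 17 of 17 genes by both scalings, at 0.62 to 1.69.

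The mRNAs that are best known from dendrites were not all higher. Of 23 such genes fixed as a list, 13 were higher and 7 lower, against 17 and 1 with TMM. Camk2a, the kinase of postsynaptic plasticity, measured 1565, 1305, 1726, 1463 and 1528 cpm in SNF and 1193, 1020, 1078, 974 and 1055 cpm in WCH. The groups did not overlap but lay close together, and the log2 change was 0.51 ± 0.12 (adjusted p = 0.00205). Shank3, a scaffold of excitatory synapses, measured 25, 22.6, 24.1, 21.0 and 22.0 cpm in SNF and 14.4, 11.1, 10.7, 14.7 and 10.1 cpm in WCH. It rose by 0.92 ± 0.13 (adjusted p = 5.7e-05), and Shank1 rose by 0.85 ± 0.11, Dlgap3 by 0.65 ± 0.12 and Ddn, or dendrin, by 0.53 ± 0.12 (0.43 without replicate 3). The proteins of Shank3, Shank1, Dlgap3 and Ddn lack a hydrophobic segment, so that these mRNAs rose against a median of -0.76 in their class. Arc, an activity-induced postsynaptic protein, was at 0.11 ± 0.11 (adjusted p = 0.372) with library sizes and at 0.63 with TMM.

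Dlg4, which encodes the scaffold PSD-95, turned its direction with the scaling. It measured 38.6, 41.0, 54.2, 45.5 and 46.3 cpm in SNF and 45.7, 52.0, 56.9, 60.9 and 52.2 cpm in WCH. SNF was lower in all 5 pools, but the ranges overlapped, and the log2 change was -0.25 ± 0.10 (adjusted p = 0.0384) with library sizes and 0.27 (adjusted p = 0.0367) with TMM. Without the replicate block its adjusted p was 0.0788. Among 20 postsynaptic scaffold genes, 3 were higher and 13 lower with library sizes and 8 and 3 with TMM, and the list's median turned from -0.46 to 0.07. Homer1, which links receptors to internal calcium stores, fell by 1.17 ± 0.11, and it stayed lower with TMM, at -0.64.

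Motors and the cytoskeleton held genes of both directions, beside 22.2% higher and 51.4% lower over all genes tested. Most cytoskeletal genes were lower with library sizes. Of 49 kinesin and dynein genes, 8 were higher and 24 lower (11 and 13 with TMM). Kif5a, a motor of axonal transport, measured 1158, 1310, 2452, 969 and 1412 cpm in SNF and 389, 570, 711, 449 and 640 cpm in WCH, without overlap, and rose by 1.36 ± 0.14 (adjusted p = 9.42e-06). Dync1h1, the heavy chain of dynein, was higher in 4 of 5 pools, at 688, 799, 621 and 591 cpm in SNF 1, 2, 4 and 5 and 233 cpm in SNF 3, against 223 to 252 cpm in WCH, and its log2 change of 1.20 ± 0.23 became 1.5 without replicate 3. Of 34 cytoskeletal genes, 8 were higher and 25 lower (9 and 6 with TMM), led by the spectrin Sptbn1 (1.4 ± 0.15) and the linker Dst (1.20 ± 0.10), whereas the neurofilament-related Ina (-1.07 ± 0.11) and the tubulin regulator Stmn1 (-1.0 ± 0.10) fell.

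Glial and vascular markers were among the highest lists. All 15 microglia genes were higher, with a median of 1.55, and 15 of 16 astrocyte genes, with a median of 1.45. Of 15 endothelial and mural genes 12 were higher and none lower, and all 4 of oligodendrocyte precursors were higher. With TMM the endothelial and mural counts were 14 and 0, and the numbers higher in the other 3 lists were the same. Slc1a2, the main glutamate transporter of astrocytes, measured 6535, 6273, 7970 and 7824 cpm in SNF 1, 2, 4 and 5 and 18228 cpm in SNF 3, against 1465, 1619, 2869, 2239 and 2522 cpm in WCH. SNF exceeded WCH in each pool, and the log2 change was 2.05 ± 0.17 (adjusted p = 5.38e-06), or 1.89 without replicate 3. Of 8 genes of ependymal cells and choroid plexus, 3 were higher and 2 lower (4 and 1 with TMM). C1qa, a complement gene of microglia, rose by 1.89 ± 0.15, Mag, a myelin adhesion molecule, by 1.81 ± 0.11, and Vtn, a mural cell protein, by 2.07 ± 0.16.

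In these lists, too, genes whose protein had no segment were not uniformly lower. Of 7 astrocyte genes without a segment 6 were higher, among them the enzyme Aldoc (1.5 ± 0.19), the filament protein Gfap (1.19 ± 0.15) and Glul, or glutamine synthetase (1.31 ± 0.20). Gfap measured 287 cpm in SNF 3 and 128 to 162 cpm in the other SNF libraries, and its change without replicate 3 is given below. Aldoc and Glul also varied widely in SNF, at means of 4951 ± 2616 and 824 ± 484 cpm (SD). Of 6 such oligodendrocyte genes 2 were higher and 4 lower, of 2 in microglia 2 were higher, and of 2 endothelial and mural genes none changed. Most microglia, endothelial and mural genes had a segment or stretch, and 13 of 13 and 12 of 13 of these were higher. Whether the lists rose apart from the class of their proteins was not tested. Of 19 oligodendrocyte genes 14 were higher and 4 lower (15 and 1 with TMM). Mbp, a myelin protein whose mRNA is carried into processes, measured 2596, 2933, 3716, 2014 and 3957 cpm in SNF and 647, 789, 1018, 814 and 1035 cpm in WCH, and rose by 1.8 ± 0.14 (adjusted p = 5.19e-06). Sox10, the transcription factor of this lineage, fell by 1.03 ± 0.10, and the other lower genes, Cnp, Ermn and Aspa, were between -0.44 and -0.46 with library sizes and between 0.07 and 0.08, without passing the test, with TMM.

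The summed level of the glial lists moved with SNF in every pool. Astrocyte genes summed to 12892 to 37945 cpm in SNF and 4501 to 7343 cpm in WCH, microglia genes to 1035 to 1732 and 379 to 546 cpm, oligodendrocyte genes to 18827 to 22620 and 8167 to 10508 cpm, and endothelial and mural genes to 182 to 296 and 78.5 to 122 cpm. No member of these 4 lists was at 0 in all 10 libraries. The part of these cells in the changes of other genes was not tested. Red blood cell genes, in contrast, summed to 75.4 to 114 cpm in SNF and 270 to 406 cpm in WCH, and all 5 were lower by both scalings, with a median of -1.85. Hbb-bs, an adult beta-globin, measured 60.8, 50.1, 49.4, 41.8 and 39.5 cpm in SNF and 208, 210, 152, 157 and 136 cpm in WCH, and fell by 1.83 ± 0.11 (adjusted p = 4.91e-06). Near-identical globin copies lose the reads they share, since only reads with a single alignment were counted.

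**Figure D4:**
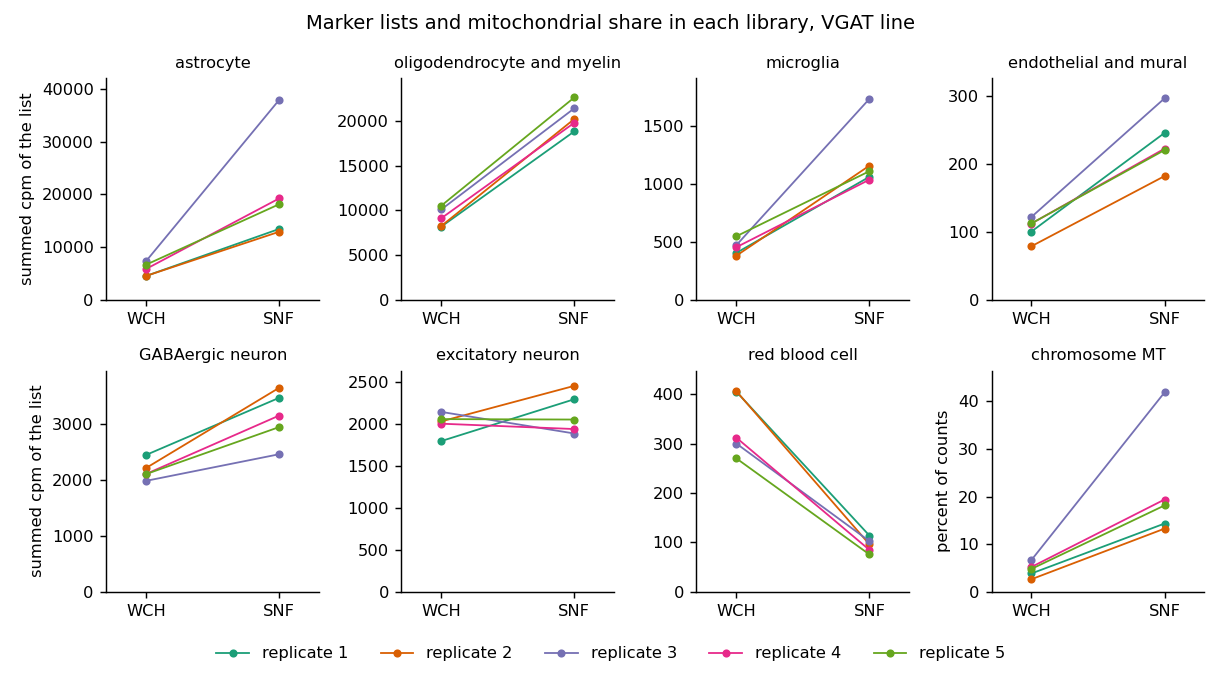
Summed cpm of 7 marker lists and the percent of counts on the mitochondrial chromosome in each library, on linear axes from 0, with lines joining the WCH and SNF library of a pool. The astrocyte, oligodendrocyte, microglia and vascular lists and the mitochondrial share rise in all 5 pools, the red blood cell list falls from 270 to 406 cpm to 75.4 to 114 cpm, and SNF 3 is highest in the astrocyte and microglia lists and in the mitochondrial share, at 41.9%.

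Zinc finger, splicing, RNA-binding, proteasome and activity-induced genes were mostly lower with library sizes, as were 51.4% of all genes tested. With TMM, the share lower over all genes was 24.3%. Of 318 zinc finger genes of the Zfp series, 271 were lower and 2 higher, with a median of -0.94 (161 and 9 with TMM). The 2 were Zfp423 and Zfp521. All but 3 of 51 splicing factor genes were lower, 48 in number, and none was higher (30 and 0 with TMM). Of 22 genes of RNA-binding proteins that act in mRNA transport, 21 were lower and none higher (10 and 1 with TMM), among them Fmr1, whose product FMRP represses translation at synapses, at -0.85 ± 0.10, and Cpeb1 at -1.33 ± 0.16. Proteasome genes were lower in 34 of 38 and higher in 2, the immunoproteasome subunits Psmb8 and Psmb9 (12 and 3 with TMM). Activity-induced genes were lower in 17 of 21, among them Fos (-1.20 ± 0.12) and Egr1 (-1.47 ± 0.12), and higher in 2, both of which encode secreted proteins, Bdnf (0.69 ± 0.14) and Nptx2 (1.21 ± 0.13). With TMM these counts were 11 lower and 3 higher.

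RNAs that stay in the nucleus varied between the SNF libraries. Of 7 nuclear long noncoding RNAs tested 4 were lower and none higher, by both scalings, beside 51.4% lower over all genes with library sizes. Without replicate 3, 4 were lower and 1 was higher. With all replicates, 3 did not pass. Kcnq1ot1 was at 0.52 ± 0.57, with means of 172 cpm in SNF and 64.8 cpm in WCH. Neat1 was at -0.42 ± 0.26 and Mirg at -0.58 ± 0.33. Malat1, a resident of nuclear speckles, measured 5410, 2870, 1517, 9024 and 11520 cpm in SNF and 21703, 10982, 15869, 18391 and 19063 cpm in WCH. SNF was lower in each pool, by factors that differed widely, and the log2 change was -1.8 ± 0.33 (adjusted p = 0.000414), or -1.42 without replicate 3. SNF 4 and SNF 5 had the highest SNF levels of Malat1, and also of Meg3, Miat, Snhg11 and Mir124a-1hg, and SNF 3 the lowest of each. Of 7 microRNA host transcripts, a list drawn up after values were seen, 5 were lower and none higher (3 and 0 with TMM). Over all 1255 long noncoding genes tested, 594 were lower and 42 higher, or 47.3% and 3.35%, against 51.4% and 22.2% of all genes.

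Ribosomes and mitochondria gave the results that depended most on scaling and on single pools. Of 82 cytoplasmic ribosomal protein genes, 5 were higher and 16 lower with library sizes and 47 and 2 with TMM. When single replicates were left out, the number higher ran from 1 without replicate 5 to 13 without replicate 1, and the number lower from 12 without replicate 1 or 5 to 27 without replicate 3. These genes have many pseudogenes, and reads shared with them were not counted. Of 84 nuclear genes of the respiratory chain and ATP synthase, 11 were higher and 26 lower (34 and 1 with TMM), and the number lower was 50 without replicate 3 and 16 to 18 without 1 of the others, while the number higher was 16 without replicate 1. Cox6a1, a cytochrome oxidase subunit, rose by 1.18 ± 0.19, with 1345 cpm in SNF 3 and 541 to 711 cpm in the other SNF libraries, and by 1.07 without replicate 3. In contrast, 65 of 74 mitochondrial ribosomal protein genes were lower and none higher (24 and 1 with TMM). Translation factors were lower in 47 of 59 genes and higher in 3 (17 and 10 with TMM). Beside these 2 lists, 51.4% of all genes tested were lower with library sizes and 24.3% with TMM.

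Families defined by their symbol were drawn up after values were seen, and among them a family of membrane proteins could go either way. Solute carriers other than those of the mitochondrial Slc25 family were higher in 175 of 219 genes and lower in 8, with a median of 0.93, while the Slc25 carriers, which are multi-pass proteins of the mitochondrial inner membrane, were higher in 5 of 41 and lower in 29, with a median of -0.60. With TMM the counts were 194 and 1 for the former and 10 and 11 for the latter. Cadherins and protocadherins, cell adhesion molecules, were higher in 52 of 56 genes and lower in 2 (53 and 1 with TMM). Transmembrane genes of the Tmem series were higher in 129 of 197 and lower in 17, against 163 and 3 with TMM and 139 and 20 without replicate 3. Gpr receptors were higher in 35 of 54 and lower in 0, against 46 and 0 with TMM and 40 and 1 without replicate 3. Ubiquitin-conjugating enzymes of the Ube2 series were higher in 0 of 32 and lower in 30 (0 and 19 with TMM).

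The length and GC content of the 3′ UTR were compared between the directions. Among genes that changed by both scalings, the 3′ UTR had a median length of 1358 bases in 3518 higher and 1387 bases in 3649 lower protein-coding genes, and 1193 bases over all of those tested. Its median GC content was 45.3% in higher and 42.4% in lower genes, and 44.3% over all. Between the lowest and the highest of 5 bins of genes by this GC content, the share higher went from 22.5% to 29.1% and the share lower from 56.9% to 44.5%. Within the class without a segment these shares went from 3.61% to 6.5% and from 75.8% to 64.9%. With TMM the share lower in this class went from 41.1% to 23.4%, and that in the class with 2 to 5 segments from 5.41% to 1.62%.

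Whether the change from WCH to SNF was particular to the VGAT line was asked against the RBP4-TRAP line, in which a Cre driven by Rbp4 tags ribosomes of layer 5 pyramidal neurons and whose 10 SNF and WCH libraries come from other mice of 21 d. In a single edgeR fit over the 20 libraries, with the 10 pools as a block, 0 of 16961 genes (0%) differed in their change between the lines at an adjusted p of at most 0.05. At an unadjusted p under 0.05 there were 363, and DESeq2 found 0 and 337. Across 15909 genes tested in both, the log2 changes had a Pearson correlation of 0.93, which is across genes and not over independent samples. Of 16376 genes tested in RBP4, 3099 (18.9%) rose in SNF and 7614 (46.5%) fell. Of the genes higher in VGAT, 81.8% were also called higher in RBP4, and of those higher in RBP4, 94.9% in VGAT, with 84.4% and 92.1% for the lower genes. No gene was called in opposite directions.

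**Figure D5:**
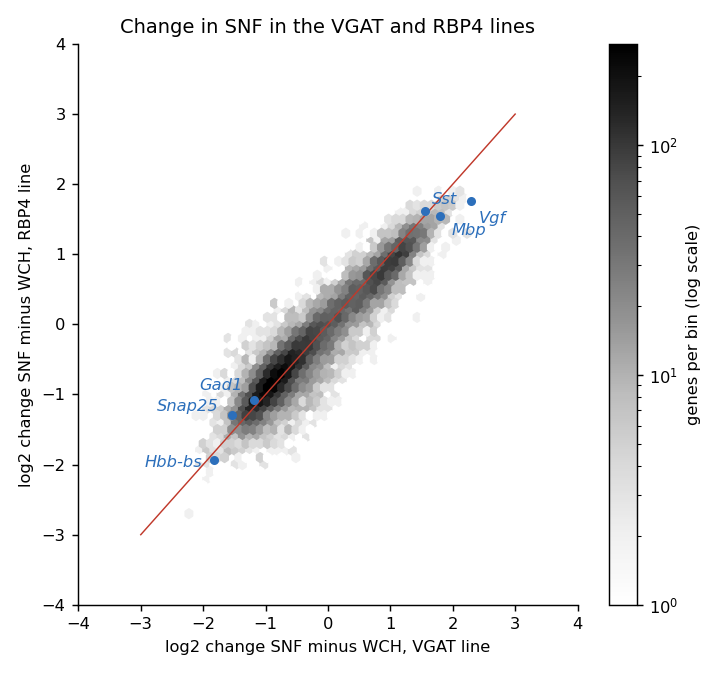
Log2 change from WCH to SNF of 15909 genes in the VGAT line (x) and the RBP4 line (y), as a density of genes per hexagon on a logarithmic grey scale, with the line of equal change in red and 6 genes named in blue. The genes lie along the line from Hbb-bs and Snap25 at the lower left to Mbp, Sst and Vgf at the upper right, with a Pearson correlation of 0.93 across genes.

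The GABAergic genes that split in the VGAT line had the same directions in the RBP4 line. There, Sst changed by 1.62 ± 0.20, Slc32a1 by 1.3 ± 0.20, Gad1 by -1.08 ± 0.18 and Gad2 by -1.02 ± 0.17. The difference in change, VGAT less RBP4, was -0.06 ± 0.23 for Sst, 0.10 ± 0.26 for Slc32a1, -0.11 ± 0.23 for Gad1 and -0.18 ± 0.19 for Gad2, each with an adjusted p of 1.0 in the edgeR interaction test. For Vgf it was 0.54 ± 0.28. With standard errors of 0.19 to 0.28, differences of that size in either direction could not be told from 0, so that the tests do not show that the lines are alike.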

How the data were processed

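For each library the authors aligned reads to an Ensembl assembly with STAR (2.0.4b) and counted per gene, with featureCounts (1.4.5), those that aligned to a single place and a single gene, so that near-identical genes and overlapping genes lose reads. The build and release are not given in the sources used here. The cDNA kit primes on poly(A) tails and does not mark strand, so that a gene and its antisense partner cannot be told apart. The counts as deposited are whole numbers without normalization. Beside them the authors gave CPM, scaled to the library total with MT included, and RPKM, which divides this by gene length. Recomputed from the counts, CPM differed from the deposited values by at most 4.07e-10, and neither was used further.

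Here cpm were computed from the counts on totals off MT. The test was edgeR 4.0.16's quasi-likelihood test (R 4.3.3), with the replicate number as a block because the 4 samples of a number came from 1 pool, whereas the design stated in the methods has no block. Deviations of same-numbered SNF and WCH libraries correlated at 0.36, 0.47, 0.088, 0.54 and 0.42 in the VGAT line and between -0.25 and 0.5 in the RBP4 line. On simulated counts of 15887 genes, 184 of 200 genes changed 2-fold were recovered with 3 false calls. Only these 200 genes were changed there, whereas 73.6% of the genes tested were called here. The simulation therefore cannot show how the scaling affects the calls. Symbols came from GENCODE M21 (40340 genes). Proteins were translated from the APPRIS principal transcript, or else the longest coding sequence. The genes named are key members of the lists, the 10 with the smallest p and the 5 with the largest change in each direction (groups that do not overlap, at least 5 cpm in the higher fraction, no Gm, RIKEN or pseudogene symbol), and up to 3 called in each direction of a list. Some others were named after their values were seen, mostly remaining members of small lists. The members and lists were chosen with earlier results of these data known, and 13 lists (V0, V1, tail-anchored SNARE, Rab, neuropeptide and granule, lysosome, microRNA host and 6 families by symbol), like the segment classes, were added after values were seen. Other steps used Python 3.11.15, numpy 2.4.6, pandas 2.3.3 and matplotlib 3.10.9. Alternatives were TMM, DESeq2's size factors, DESeq2 1.42.0, a likelihood ratio test, no block, other filters, rRNA and tRNA genes left out, MT in library sizes, each replicate left out, and all 20 libraries of the line. The depth of 8951206 to 18392574 counts limits genes under about 1 cpm.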

Additional observations from a re-analysis of the deposited data

Results flagged for a closer look

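In 39 of 450 groups of 5 libraries examined, 1 library stood far from the other 4 by Dixon's test, which chance gives in about 1 of 20 groups, and most of these were SNF 3. In the whole-library measures, SNF 3 had 41.9% of its counts on MT and 9.45% of its counts off MT in its 10 highest genes. SNF 1 had the highest total of the SNF libraries, 18406992 counts.
Glial and secretory genes were high in SNF 3, with Slc1a2 at 18228 cpm, Cpe at 12832 cpm, Sparc at 2676 cpm, Scd1 at 886 cpm, Ptprz1 at 655 cpm, Gfap at 287 cpm, Cx3cr1 at 203 cpm, Itgam at 62.9 cpm, Tmem176a at 59.1 cpm, C1qa at 25.7 cpm and Cdh5 at 4.80 cpm. So were Slc25a18 at 153 cpm, Slc47a1 at 22.7 cpm, Tmem51 at 6.03 cpm, Slc22a18 at 1.68 cpm, Vamp8 at 54.9 cpm and Rab13 at 14.5 cpm. Others high there were the respiratory genes Cox6a1 at 1345 cpm and Cox8a at 1072 cpm, the dendritic Ddn at 225 cpm, Kif1c at 56.5 cpm, Grin2c at 34.0 cpm, Eif2ak2 at 18.9 cpm, Zfp521 at 16.3 cpm and Alas2 at 7.04 cpm. Elavl2 at 32.5 cpm and Ube2d1 at 19 cpm were low there.
In other SNF libraries, Hspa5 stood apart at 1364 cpm in SNF 4, Uqcrfs1 at 107 cpm in SNF 1 and Sox10 at 18.2 cpm in SNF 2. Of the WCH libraries, WCH 1 stood apart for Pvalb at 222 cpm, Npy at 280 cpm and Stmn1 at 111 cpm, WCH 2 for Atp6v0b at 375 cpm and Zfp526 at 2.68 cpm, and WCH 3 for Slc47a1 at 4.71 cpm. Without replicate 3, Slc1a2, Scd1 and Gfap changed by 1.89, 2.16 and 1.02 on the log2 scale, against 2.05, 2.25 and 1.19 with it.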

How the results depend on the processing

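The count of genes higher in SNF (3595) stayed within 1.5 times under all 16 alternatives, between 2524 with MT in library sizes and 5082 with TMM, and between 3315 and 3692 when single replicates were left out. The count lower (8308) moved to 3924 with TMM, 4654 with DESeq2's size factors in edgeR and 4280 with DESeq2, and ran from 7518 to 8687 when single replicates were left out. The share of calls that were higher was 30.2% with library sizes, 56.4% with TMM, 51.0% and 52.3% with the DESeq2 scalings and 20.9% with MT in library sizes. Without the replicate block, 3522 genes were higher and 7970 lower, and in all 20 libraries of the line with the replicate block 3420 and 8120, so that the pairing changed neither count by over 1.5 times. Of 219 named genes, 217 kept their call without the block, Dlg4 and Slc10a1 lost it (adjusted p = 0.0788 and 0.138), and with TMM 200 kept it, 14 lost it, 1 gained it and 4 changed sign. The difference between the lines gave 0 genes under all settings but one. With no filter on low counts it gave 1, Plekhh2, and without replicate 3 in both lines, an alternative chosen after seeing the data, 0. Of the named genes, Dlg4 turned to 0.27 with TMM, 0.21 with DESeq2's size factors and 0.21 with DESeq2, Limk1 to 0.028 with TMM, Cnp to 0.0684, 0.0015 and 0.0015 and Ermn to 0.0794, 0.0125 and 0.0126 under the same 3 scalings. Aspa, named outside the rule, turned to 0.0791 with TMM. Of the list medians, postsynaptic scaffold turned to 0.0677 with TMM and 0.000946 with DESeq2's size factors, GABAergic neuron to 0.39, 0.32 and 0.32 and respiratory chain to 0.34, 0.27 and 0.27 under the 3 scalings, and cytoplasmic ribosome, at 0.0227, to -0.27 with MT in library sizes and to between -0.133 and 0.121 when single replicates were left out, negative without replicate 3 or 5, for which the cause was not tested. TMM and the DESeq2 scalings by construction move all genes up together, the median of all genes from -0.54 to -0.02, -0.09 and -0.1. Depth limits genes near the filter, as 1 count was worth up to 0.112 cpm.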

Other observations

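Some genes took very different shares of single libraries of a group. Xist, the RNA that coats the inactive X chromosome, measured 9.95, 6.59, 2.23, 126 and 204 cpm in SNF 1 to 5 and 27.0, 17.1, 22.0, 32.1 and 27.6 cpm in WCH, so that it was lower than in the WCH of the same pool in SNF 1 to 3 and higher in SNF 4 and 5, at a log2 change of -0.02 ± 0.74 (edgeR, adjusted p = 0.985). The pools held both sexes as available, in numbers not given in the sources used here.
Plekhh2 measured 248, 25.3, 125, 4465 and 5320 cpm in SNF 1 to 5 and 47, 12.3, 23.7, 27.3 and 174 cpm in WCH, so that SNF 4 and 5 were again the highest, at a log2 change of 3.48 ± 0.78 (edgeR, adjusted p = 0.0018). Both genes were chosen after their values were seen, and what sets these levels was not tested.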
